A study of Mus musculus with 9 samples.

Results

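The genes described here are the solute carriers that move amino acids and neurotransmitters across cell membranes, chosen by name from the deposited table: every gene whose symbol began with Slc1a, Slc3a, Slc6a, Slc7a, Slc36a or Slc38a and a number, with Slc1a2, Slc1a3, Slc7a1, Slc7a2, Slc7a10 and Slc7a11 left out. The rule goes by gene names and holds no measured value, although it was set with earlier results of these data known. It gave 55 of the 24421 rows of the table, of which 52 are transporters or their heavy chains and 3 are not (the antisense RNAs Slc36a1os and Slc6a19os, and Slc7a6os, a protein-coding neighbor of Slc7a6). RNA sequencing was performed on 9 ex vivo libraries from the brains of C57BL/6 mice. There were 3 control libraries (mice given vehicle) and 3 BAL101553 libraries. Their cells were SB28, a mouse glioma line carrying GFP and luciferase that had been implanted in the brain. The labels call these samples whole tissue, whereas the methods describe a sort of GFP+ CD45- CD11b- cells. BAL101553 (lisavanbulin) is an oral prodrug of a microtubule-disrupting agent that activates the spindle assembly checkpoint. The BAL101553 tumors were harvested later than the control tumors, so that drug and time of growth cannot be told apart, and all of them came from 1 cell line. The other 3 libraries carry the labels astrocytes and BAL101553, with no vehicle counterpart among the groups. How those cells were obtained is not given in the sources used here.

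Cells take up amino acids through several families of carriers that differ in their substrates and in the ion gradient that drives them. SLC1 carriers take up glutamate or exchange small neutral amino acids, and SLC6 carriers use sodium and chloride to recover neurotransmitters such as GABA, glycine and noradrenaline, or to take up taurine and creatine. The light chains of SLC7 reach the membrane only when bound to a heavy chain of SLC3, whereas the cationic branch of SLC7 works alone. SLC38 carriers bring in glutamine and other small neutral amino acids, and SLC36 carriers let amino acids out of lysosomes or across the plasma membrane with protons. In brain, astrocytes are known for clearing glutamate, GABA and glycine from the synapse and for returning glutamine to neurons, and growing tumor cells are known for importing glutamine and essential amino acids.

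Between 22919523 and 34013875 reads were counted per library. Levels are given as CPM, the read counts per unit of library size after TMM scaling over the 9 libraries. Genes are ranked by level only per kilobase of exon (CPM per kb). Sums over genes, the ratio of Slc7a5 to Slc3a2 and the levels of genome neighbors are in CPM, without regard to exon length. In the SB28 libraries the astrocyte list of 10 genes summed to 752 to 1139 CPM, mainly from Gja1 (641 to 920 CPM), Sox9 (78.3 to 171 CPM) and Aldh1l1 (20.1 to 43.6 CPM), while Aqp4 and Gfap lay at or below 0.536 CPM. There the leukocyte genes Ptprc, Itgam and Aif1 lay at or below 0.439 CPM. Their whole list of 9 microglia and macrophage genes summed to 158 to 380 CPM, nearly all from Tmem119 (154 to 377 CPM). Tmem119 was lower in the libraries labelled astrocytes, at 37.4 to 58.1 CPM. The oligodendrocyte list of 6 genes summed to between 15.1 and 20.5 CPM in SB28 libraries. The libraries labelled astrocytes held the astrocyte list at a sum of 13288 to 16144 CPM, and also the oligodendrocyte list at 10495 to 13036 CPM, the choroid plexus and ependyma list of 6 genes at 2220 to 4767 CPM and the microglia and macrophage list of 9 genes at 475 to 1003 CPM. By these markers they held other cell types beside astrocytes. In such bulk libraries, fewer cells of a type and less RNA per cell cannot be told apart.

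**Figure D1:**
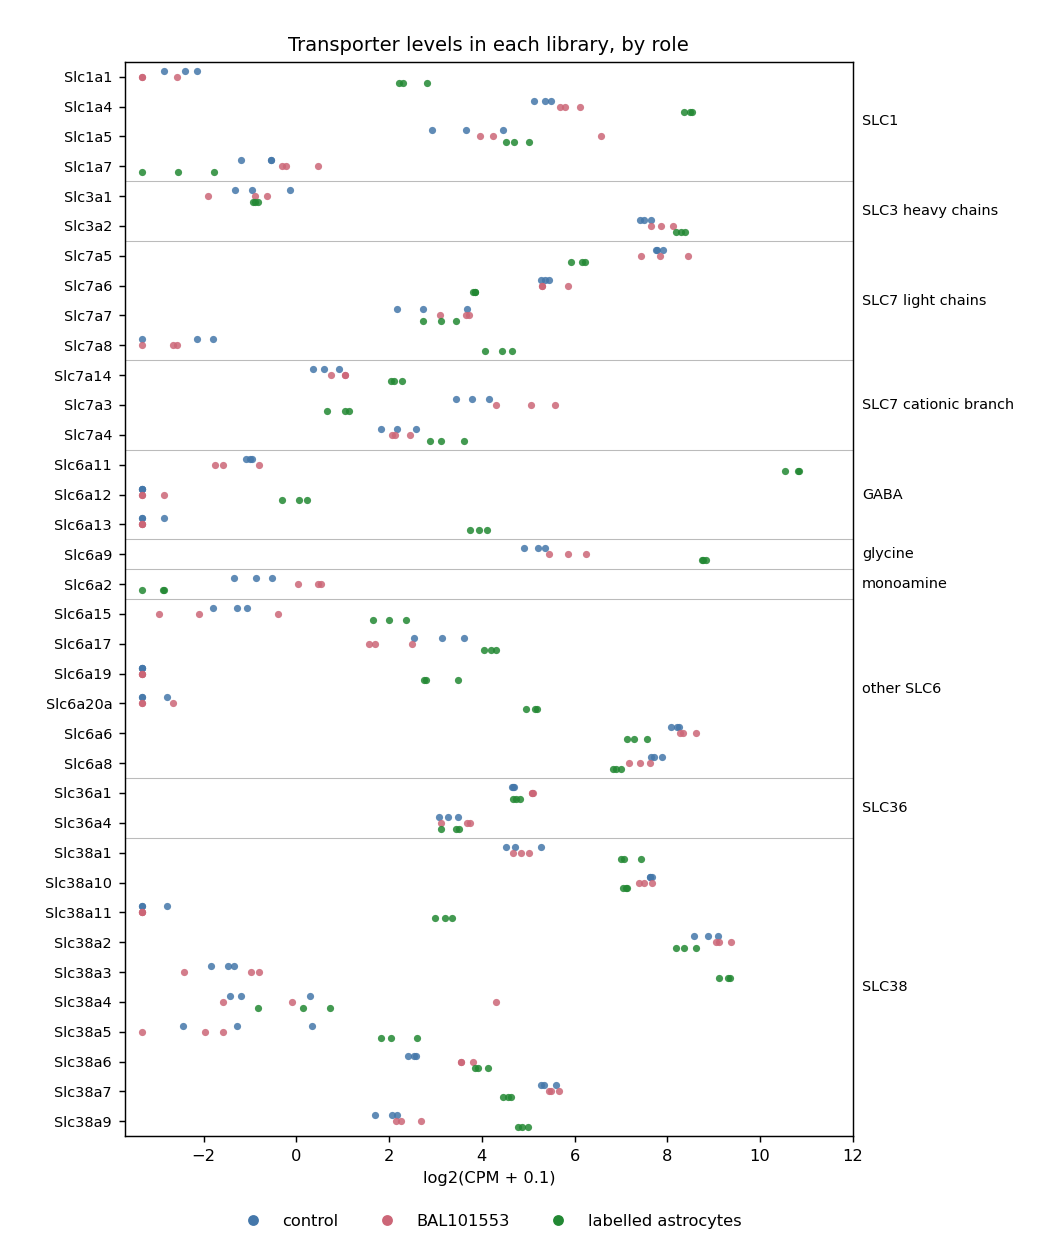
Level of transporters that were tested between the libraries labelled astrocytes and BAL101553, as log2(CPM + 0.1) on the x axis, with 1 point per library (3 control, 3 BAL101553 and 3 labelled astrocytes) and genes ordered by role. Control and BAL101553 points lie close together for most genes, while the GABA transporter Slc6a11 lies between 1496 and 1829 CPM in the libraries labelled astrocytes and at or below 0.473 CPM in SB28.

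Of the 55 members, 18 had at least 100 counts in every SB28 library and 21 had at most 3 counts in each of them. In the libraries labelled astrocytes, 30 members had at least 100 counts in each. The genes Slc36a3, Slc6a18, Slc7a12 and Slc7a9 had no count in any of the 9 libraries, and 12 members in all had at most 3 counts in each. Among these low genes were transporters that serve particular neurons, such as Slc6a3 for dopamine and Slc6a5 for glycine. The summed level of the 52 transporters was 1749 to 1927 CPM in the control libraries and 2024 to 2478 CPM in the BAL101553 libraries. It was 5663 to 6136 CPM in the libraries labelled astrocytes, and none of the groups overlapped.

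Per kilobase, the most abundant member in SB28 cells was Slc38a2 (SNAT2), a sodium-coupled carrier of glutamine and alanine. Its level was 99.98 ± 17.9 CPM per kb in control and 125 ± 15.6 CPM per kb in BAL101553 libraries (SD, n = 3 each), followed by Slc3a2 (60.8 ± 4.98 and 78.9 ± 13.1 CPM per kb), the heavy chain also called CD98hc or 4F2hc. The light chain Slc7a5 (LAT1), an importer of leucine and other large neutral amino acids, had 64.1 ± 3.31 and 71.0 ± 25.3 CPM per kb. Slc3a2 and Slc7a5, whose proteins form one transporter, did not differ in level beyond their spread.

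Next came the taurine transporter Slc6a6, at 46.7 ± 2.69 CPM per kb in control and 55.3 ± 6.88 in BAL101553 libraries, and the creatine transporter Slc6a8, at 54.3 ± 4.53 and 42.9 ± 6.74 CPM per kb. The order of these 2 turned between the groups. Slc38a10, an orphan member of the SLC38 family, was at 36.9 ± 0.608 and 33.9 ± 3.33 CPM per kb. A gap followed, to Slc7a6os, at 13.8 ± 1.55 and 14.5 ± 1.88 CPM per kb, and to the lysosomal glutamine exporter Slc38a7, at 12.7 ± 1.61 and 13.9 ± 1.08 CPM per kb. The neighbors Slc6a9, Slc1a4 and Slc7a6 lay between 9.81 and 16.1 CPM per kb as group means, and their BAL101553 libraries overlapped those of Slc38a7.

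The promoters of some members named in the results are shown for reference, as the bases before the start of transcription in RefSeq on GRCm38.p6, read 5' to 3' along the gene. Those of Slc38a6, Slc7a3 and Slc6a2, which were also called after BAL101553, are not shown. RefSeq promoters (250 bases before to 50 after each start) were found for 39 of the 55 members. Slc38a2 led in SB28 cells and its stretch is chr15:96699731-96699978 on the minus strand, Slc1a4 and Slc36a1 were called after BAL101553 (chr11:20332714-20332963, minus strand, and chr11:55204090-55204339, plus strand), and Slc6a11 led in the libraries labelled astrocytes (chr6:114130991-114131240, plus strand). Capitals mark an E-box.
Slc38a2: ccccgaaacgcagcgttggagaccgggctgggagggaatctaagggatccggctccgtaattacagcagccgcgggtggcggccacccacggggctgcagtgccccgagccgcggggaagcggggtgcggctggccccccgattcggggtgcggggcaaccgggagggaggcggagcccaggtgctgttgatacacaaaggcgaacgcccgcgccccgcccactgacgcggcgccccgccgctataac
Slc1a4: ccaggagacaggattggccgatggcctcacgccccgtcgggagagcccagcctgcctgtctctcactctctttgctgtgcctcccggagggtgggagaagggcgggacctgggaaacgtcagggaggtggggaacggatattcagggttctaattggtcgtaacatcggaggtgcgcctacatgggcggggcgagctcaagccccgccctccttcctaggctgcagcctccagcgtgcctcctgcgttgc
Slc36a1: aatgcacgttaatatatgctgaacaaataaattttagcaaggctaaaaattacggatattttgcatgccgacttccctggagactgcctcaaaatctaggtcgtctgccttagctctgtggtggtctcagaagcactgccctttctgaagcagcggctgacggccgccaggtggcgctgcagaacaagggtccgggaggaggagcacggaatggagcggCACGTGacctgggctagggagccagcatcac
Slc6a11: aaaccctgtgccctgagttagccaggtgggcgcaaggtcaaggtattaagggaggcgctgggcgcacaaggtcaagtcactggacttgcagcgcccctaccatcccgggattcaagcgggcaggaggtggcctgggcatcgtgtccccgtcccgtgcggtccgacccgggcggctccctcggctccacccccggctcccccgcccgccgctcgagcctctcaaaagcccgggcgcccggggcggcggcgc

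The following motifs were searched on both strands over the 300-base windows. The E-box CACGTG, bound by factors such as TFEB, MITF and MYC, was in 7.15% of all 32851 promoters and in 7 of the 58 promoters of members. In Slc36a1 it occurred at positions -31 and -3, of which the first is in capitals above. The response element TGATGNAA, bound by C/EBP and ATF factors when amino acids are scarce, was in 3.97% of all promoters and in 3 of 58 of members, belonging to Slc1a4 and Slc7a7. In Slc1a4 it spans the start site, beginning at position -4, and runs, with 8 bases on either side, as ctcctgcgTTGCATCAtctccagc. The palindrome of NFI factors was in 0.0365% of all promoters and in 0 of 58. No match of one motif overlapped another in the promoters of members. A match describes these letters in this window and is not a measured binding site.

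The question of the first comparison was how SB28 cells differed between BAL101553 and vehicle mice. Of the 27 members that passed the filter on low counts, 5 rose and 0 fell past an adjusted p of 0.05 (edgeR quasi-likelihood test, two-sided, n = 3 against 3), against 14.7% of all 12633 genes tested in either direction with 8.64% higher and 6.09% lower. At an unadjusted p under 0.05, 8 were higher and 2 lower (Slc6a17 and Slc6a8), against 34.1% of all genes in either direction. DESeq2 called 5 higher and 1 lower of the 29 members it tested, against 21.6% of the 13029 genes it tested. The 5 called by edgeR were Slc38a6, Slc7a3, Slc6a2, Slc1a4 and Slc36a1, and each belonged to a different role group. The median log2 fold change of the 27 was 0.33, against 0.02 over all genes tested. Of the 27, 21 were above 0, against 6505 of the 12633 genes. The share of the 27 that passed in edgeR, 18.5%, lay near the 14.7% of all genes. Whether their split by direction differed from that of all genes was not tested. The other 28 members were not tested, and none exceeded 1.15 CPM in a SB28 library.

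Slc38a6 (chr12:73286779-73354049, plus strand, on GRCm38 like all gene positions given here), a sodium-coupled carrier linked to glutamine and glutamate, showed the rise with the smallest adjusted p. Its level was 5.72, 5.21 and 5.92 CPM in control libraries 1 to 3 and 11.7, 11.6 and 13.9 CPM in BAL101553 libraries 1 to 3. All BAL101553 libraries were higher than all control libraries, by a log2 fold change of 1.15 (SE 0.15, adjusted p = 0.00787, edgeR).

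Slc7a3 (CAT3, chrX:101079210-101086020, minus strand) carries arginine and lysine. It had 10.8, 13.6 and 17.8 CPM in the control libraries and 19.8, 47.9 and 33.1 CPM in the BAL101553 libraries. The groups did not overlap, although the BAL101553 libraries spread widely and library 1 lay close to control library 3. The log2 fold change was 1.26 (SE 0.32, adjusted p = 0.0381, edgeR).

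Slc6a2 (NET, chr8:92960079-93001667, plus strand) is the noradrenaline transporter. It was at the lower end of what was measured, with 0.447, 0.596 and 0.292 CPM in control and 1.35, 1.29 and 0.929 CPM in BAL101553 libraries. These levels rest on 7 to 16 counts per control library and 32 to 40 counts per BAL101553 library. The groups were apart, with a log2 fold change of 1.41 (SE 0.37, adjusted p = 0.0421, edgeR).

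Slc1a4 (ASCT1, chr11:20302180-20332713, minus strand) exchanges alanine, serine, cysteine and threonine. Its level was 45.0, 34.8 and 40.8 CPM in control and 51.5, 69.0 and 55.5 CPM in BAL101553 libraries, with no overlap and a log2 fold change of 0.55 (SE 0.14, adjusted p = 0.0415, edgeR). Slc36a1 (PAT1, chr11:55204350-55236330, plus strand), the proton-coupled carrier of lysosomes, had the tightest groups. It was at 25.6, 25.1 and 25.3 CPM in control and at 33.8, 34.3 and 34.0 CPM in BAL101553 libraries, a log2 fold change of 0.43 (SE 0.092, adjusted p = 0.0243, edgeR).

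**Figure D2:**
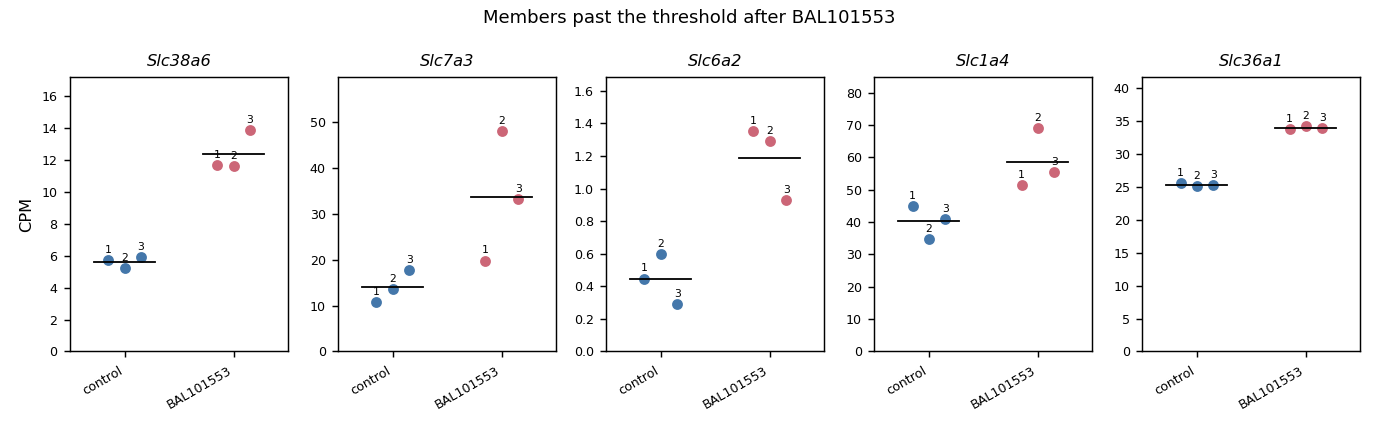
CPM (y axis, from 0) of the 5 members past the threshold, in control and BAL101553 libraries. Points are libraries with their replicate number and bars are means of 3. The groups do not overlap for any of the 5, with Slc7a3 between 17.8 and 19.8 CPM at the nearest libraries and Slc6a2 between 0.596 and 0.929 CPM.

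With 1 library left out at a time, Slc38a6 passed the threshold each time, with an adjusted p of at most 0.0418 (without control 3). Slc1a4 passed only without BAL101553 1 (adjusted p = 0.0478) and missed it otherwise, at 0.0689 to 0.127. Slc36a1 passed only without BAL101553 2 (adjusted p = 0.0383) and otherwise lay at 0.0564 to 0.0986. Slc7a3 passed only without BAL101553 1 (adjusted p = 0.0218) and otherwise lay at 0.0608 to 0.113, and Slc6a2 missed it each time, at 0.0554 to 0.147. The calls over all genes fell alongside, from 1860 to 193 without control 3 and 458 without control 1.

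**Figure D3:**
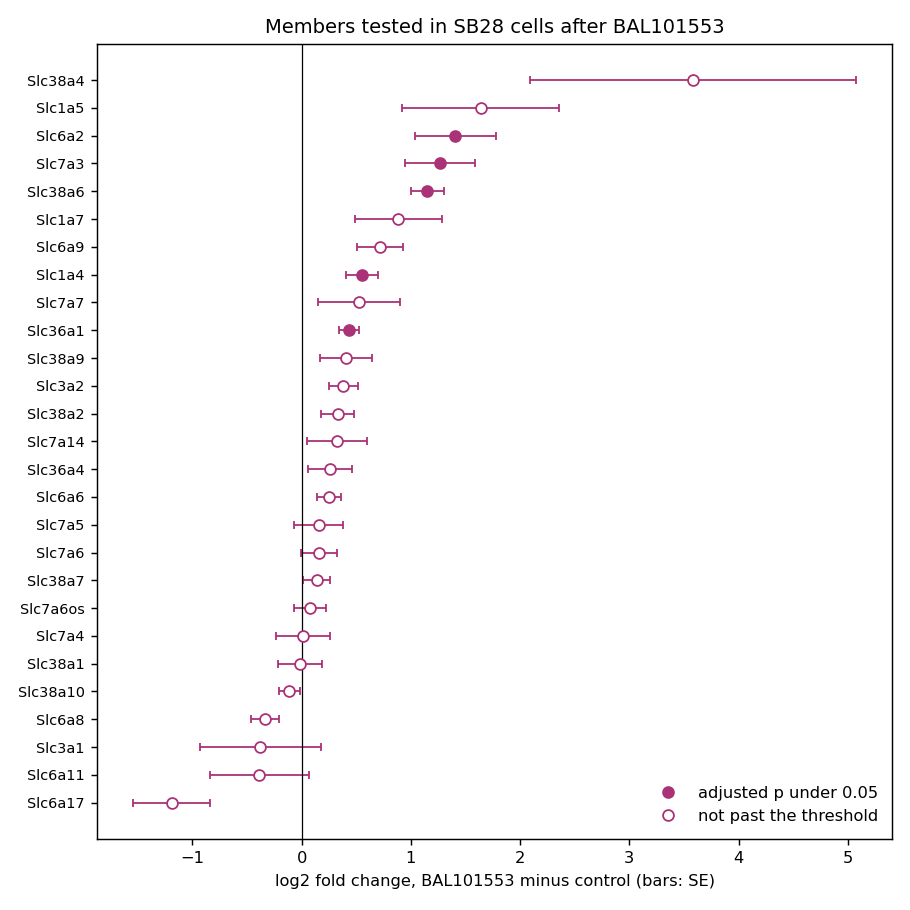
Log2 fold change of the 27 members tested, BAL101553 minus control (x axis), with bars of 1 SE. Filled points passed an adjusted p of 0.05, and all 5 lie right of 0. The longest bars belong to Slc38a4 and Slc1a5.

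The remaining 22 tested members did not pass. The groups of libraries failed to overlap for 11 of the 27, 9 of them higher after BAL101553, against 39.7% and 20.0% of all genes tested. Besides the 5 above, these were Slc3a2, Slc6a6, Slc6a9 and Slc1a7 on the higher side and Slc6a17 and Slc6a8 on the lower side.

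Closest to the threshold was Slc6a9 (GlyT1), the glial glycine transporter. It had 29.9, 37.1 and 41.2 CPM in control and 43.5, 57.7 and 76.1 CPM in BAL101553 libraries, with a log2 fold change of 0.72 (SE 0.21, adjusted p = 0.0544, edgeR). Its adjusted p was 0.0315 without BAL101553 1 and 0.0775 to 0.151 without any one of the other libraries. Exons of Slc6a9 overlap exons of Ccdc24 on the other strand, and whether the counting used strand is not given in the sources used here.

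Slc6a17 (NTT4), a vesicular carrier of neutral amino acids, was the lowest by log2 fold change. It had 12.1, 5.73 and 8.75 CPM in control and 5.57, 2.86 and 3.14 CPM in BAL101553 libraries. The groups were separated by a narrow margin, and the log2 fold change was -1.19 (SE 0.35, adjusted p = 0.0562, edgeR). Without BAL101553 1 the adjusted p was 0.0403, without control 2 it was 0.0450, and without any one of the others it was 0.106 to 0.159.

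The creatine transporter Slc6a8 had 235, 210 and 201 CPM in control and 170, 197 and 143 CPM in BAL101553 libraries (log2 fold change -0.33, SE 0.13, adjusted p = 0.118, edgeR). The taurine transporter Slc6a6 had 302, 294 and 270 CPM and 391, 312 and 324 CPM (0.25, SE 0.11, adjusted p = 0.156, edgeR). Both sets of libraries were apart by little, and the adjusted p of Slc6a8 was 0.0472 without BAL101553 2 and 0.169 to 0.274 without any one of the others. Slc1a7 (EAAT5), a glutamate transporter best known from retina, stayed at or below 1.28 CPM, with a log2 fold change of 0.88 (SE 0.40, adjusted p = 0.161, edgeR).

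Slc38a2, the most abundant member, had 470, 547 and 380 CPM in control and 556, 665 and 527 CPM in BAL101553 libraries. Control 2 lay above BAL101553 3, so the groups overlapped, and the log2 fold change was 0.33 (SE 0.15, adjusted p = 0.173, edgeR). Its chromosomal neighbor Slc38a1 (SNAT1), 44.5 kb away on chromosome 15, had 38.8, 22.7 and 26.1 CPM in control and 25.4, 28.4 and 32.3 CPM in BAL101553 libraries. These values overlapped fully.

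BAL101553 library 2 had the highest level of several carriers, among them 3 of the 5 that were called. Slc38a4 (SNAT4), known from liver and placenta, was at 0.268, 0.335 and 1.13 CPM in control and at 0.236, 19.8 and 0.842 CPM in BAL101553 libraries 1 to 3. Slc1a5 (ASCT2), a glutamine exchanger, had 21.8, 12.5 and 7.46 CPM and 15.5, 95.2 and 18.8 CPM. In both genes only library 2 was high, at 36.6 and 5.56 times the mean of the other BAL101553 libraries.

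The same library was highest for Slc7a5, at 238.5, 217 and 221 CPM in control and 171, 347 and 231 CPM in BAL101553 libraries. Slc7a6 (y+LAT2), a light chain that exchanges arginine for glutamine, had 40.8, 43.7 and 38.7 CPM and 39.2, 58.0 and 39.5 CPM. The heavy chain Slc3a2 had 171, 180 and 200 CPM in control and 201, 280 and 233 CPM in BAL101553 libraries. Of the 3, only Slc3a2 had groups that did not overlap, by 200.4 against 201.4 CPM.

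Library 2 was the highest of the 6 SB28 libraries for 10 of 27 members tested (37.0%) and for 20.9% of all genes tested. The 10 were Slc38a4, Slc1a5, Slc7a3, Slc7a5, Slc7a6, Slc3a2, Slc1a4, Slc7a7, Slc38a2 and Slc36a1. Of these, Slc7a3, Slc1a4 and Slc36a1 passed the threshold (edgeR). Slc7a3 stood in library 2 at 1.81 times the mean of the other BAL101553 libraries and Slc1a4 at 1.29 times, and neither passed without it (adjusted p = 0.0608 and 0.0689). Slc36a1 stood at 1.01 times and passed without it. The others did not pass. The log2 fold change was 3.58 for Slc38a4 (adjusted p = 0.135), 1.64 for Slc1a5 (adjusted p = 0.151) and 0.38 for Slc3a2 (adjusted p = 0.0890). It was 0.16 for Slc7a5 (adjusted p = 0.659) and for Slc7a6 (adjusted p = 0.539). Without library 2, Slc1a5 stood at 0.30, and Slc38a4, Slc7a5 and Slc7a6 were at -0.06, -0.16 and -0.06. With the library left out, Slc38a6 and Slc36a1 remained past the threshold.

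**Figure D4:**
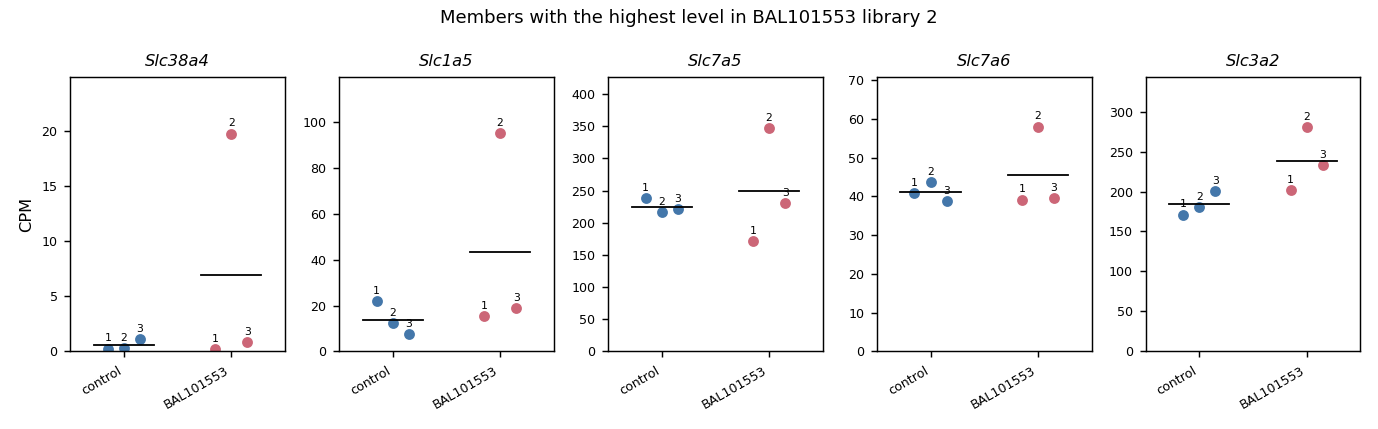
CPM (y axis, from 0) of 5 members, not past the threshold, that were highest in BAL101553 library 2, in control and BAL101553 libraries, with replicate numbers and bars for means of 3. Library 2 lies far above the rest for Slc38a4 and Slc1a5 (19.8 and 95.2 CPM) and by less for Slc7a5, Slc7a6 and Slc3a2.

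Other cell type lists also differed between the SB28 groups. The list of 8 genes for mural cells and meningeal fibroblasts summed to 3846 to 4704 CPM in control and 5906 to 6146 CPM in BAL101553 libraries, mostly from Col1a1, with Pdgfrb at 216 to 261 and 345 to 371 CPM and Dcn at 3.80 to 5.58 and 13.3 to 34.2 CPM. All 4 of its genes tested passed the threshold, 3 higher and 1 lower, against 14.7% of all genes tested. The lower one was Rgs5, at 2.31 to 7.004 CPM in control and 0.274 to 1.42 CPM in BAL101553 libraries (log2 fold change -2.36). The genes Kcnj8, Abcc9 and Slc22a6 of this list were at or below 0.117 CPM. The astrocyte list summed to 1058 to 1139 CPM in control and 752 to 908 CPM in BAL101553 libraries, and 3 of its 7 genes tested passed, 1 higher and 2 lower. The microglia and macrophage list summed to 158 to 287 and 308 to 380 CPM, nearly all from Tmem119, and the endothelial list of 6 genes to 735 to 870 and 539 to 655 CPM, mainly from Cdh5. In the SB28 libraries the endothelial genes Cldn5, Pecam1 and Slco1a4 were at or below 1.45 CPM. Flt1 was at 23.8 to 69.7 CPM and Ly6c1 at 12.7 to 28.4 CPM. The part of these lists in the differences of the transporters was not tested.

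The second comparison set the libraries labelled astrocytes against the BAL101553 SB28 libraries, which share the treatment label and differ in the labelled cells. Of 38 members tested, 20 rose and 11 fell past an adjusted p of 0.05 (edgeR, n = 3 against 3). This share of 81.6% was near that of all 15314 genes tested, 85.1% (46.3% higher and 38.9% lower), and is no result about the transporters. The median log2 fold change was 0.67, also with the genes at 0 in BAL101553 set at their lower bounds, against 0.18 over all genes tested. The libraries failed to overlap for 32 of 38, 21 of them higher, against 87.9% and 48.7% of all genes. Scaling by library totals alone, which turned no direction given below, moved the log2 fold change of all genes by a median of 0.20.

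GABA transporters were among the members that rose. Slc6a11 (GAT3, chr6:114131241-114249952, plus strand), the astrocytic form, had 1793, 1496 and 1829 CPM in the libraries labelled astrocytes and 0.473, 0.196 and 0.232 CPM in BAL101553 libraries. The groups were far apart, by a log2 fold change of 12.41 (SE 0.27, adjusted p = 1.21e-08, edgeR).

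Slc6a13 (GAT2) and Slc6a12 (BGT1, which also carries betaine) lie 5.34 kb apart on the same chromosome and were far lower than Slc6a11 per kilobase. Slc6a13 had 13.3, 15.2 and 17.3 CPM in the libraries labelled astrocytes and no count in the BAL101553 libraries. Against a floor of 3 counts per library it was at least 114-fold higher (adjusted p = 1.67e-06, edgeR). Slc6a12 had 0.946, 0.707 and 1.08 CPM against a single count in all BAL101553 libraries, a ratio of 81.3 with an exact 95% interval of 14.2 to 3253 that covers counting error only. Per kilobase, Slc6a11 was the highest of all members in these libraries, at 413 ± 44.3 CPM per kb (SD, n = 3).

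Slc38a3 (SNAT3), which exports glutamine from astrocytes, was also high per kilobase, at 173 ± 15.8 CPM per kb. It had 637, 551 and 656 CPM in the libraries labelled astrocytes and 0.405, 0.469 and 0.0871 CPM in BAL101553 libraries. The groups were apart by a log2 fold change of 10.93 (SE 0.32, adjusted p = 4.14e-08, edgeR). Slc6a9 had 435, 454 and 429 CPM in the libraries labelled astrocytes (log2 fold change 2.86, SE 0.20, adjusted p = 3.06e-06, edgeR). Unlike Slc38a3, it was also well above 0 in SB28 cells, at 29.9 to 76.1 CPM.

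Slc1a4 had 369, 329 and 359 CPM in the libraries labelled astrocytes, above every SB28 library (log2 fold change 2.55, SE 0.12, adjusted p = 3.96e-07, edgeR). Slc38a1 (SNAT1) had 134, 127 and 172 CPM there, a log2 fold change of 2.29 (SE 0.15, adjusted p = 2.02e-06, edgeR). The lysosomal arginine sensor Slc38a9 had 29.0, 31.6 and 27.4 CPM, a log2 fold change of 2.48 (SE 0.18, adjusted p = 3.64e-06, edgeR).

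Several members were seen almost only in the libraries labelled astrocytes. Slc38a11, an SLC38 member of unknown substrate, had 7.82, 10.1 and 9.09 CPM and no count in BAL101553 libraries, at least 66.6-fold higher (adjusted p = 3.52e-06, edgeR). Slc6a19 (B0AT1), the neutral amino acid carrier of kidney and gut, had 6.68, 6.86 and 11.2 CPM and no count in any SB28 library, at least 57.0-fold higher (adjusted p = 1.43e-05, edgeR). Library 3 was the highest for Slc6a19 and Slc6a13.

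Slc6a20a (SIT1), a proline and imino acid carrier, had 30.7, 36.6 and 35.4 CPM in the libraries labelled astrocytes and 2 counts in all BAL101553 libraries. The ratio was 1527, with an exact 95% interval of 422 to 12613 that covers counting error only (adjusted p = 1.17e-07, edgeR). Slc7a8 (LAT2), a light chain for neutral amino acids, had 16.7, 24.9 and 21.4 CPM against 0.0675, 0 and 0.0581 CPM. Its log2 fold change was 8.72 (SE 0.40, adjusted p = 3.55e-07, edgeR). Slc1a1 (EAAC1), the glutamate transporter also known from neurons, had 4.54, 4.84 and 6.94 CPM against 2 counts in all BAL101553 libraries. The ratio was 240, with an exact 95% interval of 66.1 to 1990 that covers counting error only (adjusted p = 6.97e-06, edgeR). Exons of Slc6a20a overlap mainly Gm17120, and by fewer bases Gm17200 and Ccr9, and exons of Slc1a1 overlap 4430402I18Rik, all on the other strand, so these counts may hold reads of both.

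The choroid plexus and ependyma marker Ttr was at 1663, 2262 and 3951 CPM in the libraries labelled astrocytes 1 to 3, and the mural and fibroblast list at 510 to 596 CPM. All 6 genes of the choroid plexus list, all 6 of the oligodendrocyte list and 8 of the 9 microglia and macrophage genes passed the threshold as higher. Of all genes tested in this comparison, 46.3% did so. Their part in the levels of Slc6a13, Slc6a12, Slc6a19, Slc6a20a and the other members of these libraries was not tested.

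**Figure D5:**
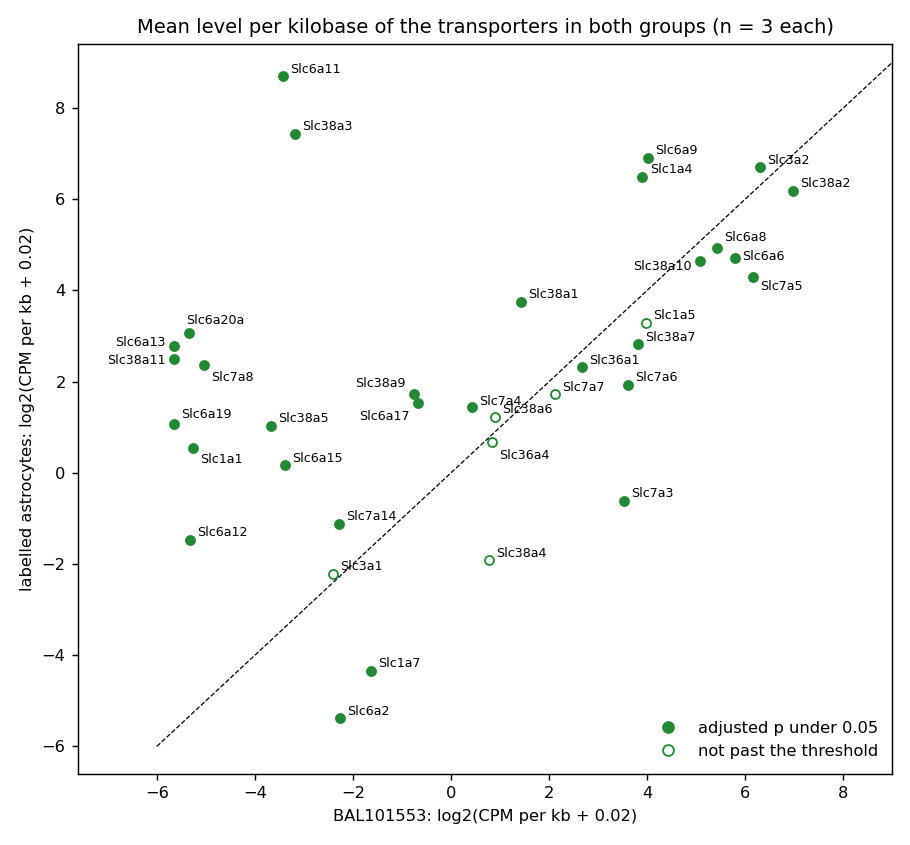
Mean level per kilobase of transporters tested, as log2(CPM per kb + 0.02), in BAL101553 libraries (x axis) and in the libraries labelled astrocytes (y axis), n = 3 each. The dashed line marks equal levels and filled points passed an adjusted p of 0.05. Slc6a11 and Slc38a3 stand at the upper left, and Slc7a3 and Slc6a2 below the line.

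Among the 11 members that were lower, Slc7a3 had 1.95, 1.48 and 2.08 CPM in the libraries labelled astrocytes, a log2 fold change of -4.22 (SE 0.34, adjusted p = 8.21e-06, edgeR). Slc6a2 had 0, 1 and 1 counts there, and was 50.4 times higher in BAL101553 libraries (adjusted p = 2.70e-05, edgeR). The exact 95% interval of 13.6 to 421 covers counting error only. Slc1a7 had 0, 0.0707 and 0.193 CPM, a log2 fold change of -3.44 (SE 0.69, adjusted p = 0.00174, edgeR). The groups did not overlap for any of the 3.

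The light chain Slc7a5 had 74.2, 61.0 and 70.9 CPM in the libraries labelled astrocytes, below every SB28 library (log2 fold change -1.89, SE 0.23, adjusted p = 9.54e-05, edgeR). Slc7a6 had 13.8, 14.3 and 14.3 CPM (-1.71, SE 0.16, adjusted p = 1.78e-05, edgeR). Their heavy chain Slc3a2 went the other way, at 331, 293 and 315 CPM, with a log2 fold change of 0.36 (SE 0.12, adjusted p = 0.0243, edgeR). This call was lost without BAL101553 1 (adjusted p = 0.107), BAL101553 3 (0.0598), astrocytes 1 (0.0813) or astrocytes 3 (0.0526).

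The level of Slc7a5 per that of Slc3a2, in CPM, was 1.10 to 1.39 in control, 0.851 to 1.24 in BAL101553 and 0.208 to 0.225 in the libraries labelled astrocytes. The last group did not overlap the others. The light chain Slc7a8, by contrast, was the one that was higher in the libraries labelled astrocytes, at 16.7 to 24.9 CPM.

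Slc6a6 had 155, 188 and 139 CPM in the libraries labelled astrocytes (log2 fold change -1.13, SE 0.14, adjusted p = 0.000122, edgeR), and Slc38a7 had 23.7, 24.7 and 21.8 CPM (-1.02, SE 0.10, adjusted p = 2.83e-05, edgeR). Slc38a2 had 329, 391 and 291 CPM (-0.82, SE 0.14, adjusted p = 0.000597, edgeR). Each was below all BAL101553 libraries, while Slc38a2 overlapped the control libraries. Slc6a8 (-0.53) and Slc38a10 (-0.47) also fell past the threshold.

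Slc36a1 had 26.5, 28.3 and 25.4 CPM in the libraries labelled astrocytes, below BAL101553 (log2 fold change -0.38, SE 0.090, adjusted p = 0.00414, edgeR) and level with control, against which the log2 fold change was 0.04 (adjusted p = 0.698). The call against BAL101553 was lost with total library sizes (-0.18, adjusted p = 0.101) and with at least 10 counts in every library (-0.16, adjusted p = 0.118). Slc38a6 had 14.4, 15.0 and 17.5 CPM, a log2 fold change of 0.30 against BAL101553 (SE 0.14, adjusted p = 0.0835, edgeR) and of 1.44 against control (adjusted p = 1.18e-05). Against BAL101553 it passed without BAL101553 3 (adjusted p = 0.0354), with total library sizes (0.50, adjusted p = 0.0166), RLE size factors (adjusted p = 0.0416), the filter of 10 counts (0.52, adjusted p = 0.00681), all 9 libraries in one model (adjusted p = 0.0428) and DESeq2 (adjusted p = 0.0381). Slc1a5 and Slc38a4 again turned on BAL101553 library 2. Slc1a5 stood at -0.69 on the log2 scale (adjusted p = 0.327, edgeR), and at 0.60 without that library (adjusted p = 0.0119). Slc38a4 stood at -2.77 (adjusted p = 0.0925), and at 0.82 without it (adjusted p = 0.253).

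The other members that rose were Slc38a5 (log2 fold change 5.09), Slc6a15 (3.91), Slc6a17 (2.18), Slc7a14 (1.21) and Slc7a4 (0.98). Slc38a5 (SNAT5), a glutamine carrier like Slc38a3, stayed between 3.43 and 5.97 CPM. The 17 members not tested in this comparison stayed at or below 0.424 CPM.

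Members that lie side by side in the genome did not share a level. On chromosome 11, Slc36a1 was read in every library, while Slc36a2 and Slc36a3, 6.76 kb apart, had at most 0.424 CPM. On chromosome 15, Slc38a2 and Slc38a1 were read throughout and Slc38a4, 295 kb beyond Slc38a2, was low in all but 1 library. On chromosome 9, Slc6a20a reached 36.6 CPM and its near copy Slc6a20b, 2.20 kb away, had at most 0.0707 CPM, although reads shared by the pair may have been lost or split by the counting.

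Enzymes and carriers that work with these transporters were read from lists. In the list for glutamine, glutamate and GABA metabolism, the mitochondrial aspartate aminotransferase Got2 fell after BAL101553, from a mean of 280.0 to 194 CPM (log2 fold change -0.52, SE 0.086, adjusted p = 0.0133, edgeR). Of 6 other amino acid carriers tested, of the cell surface, lysosome and mitochondrion, the mitochondrial aspartate-glutamate carriers Slc25a12 and Slc25a13 moved in opposite directions. The log2 fold change was 0.36 for Slc25a12 (adjusted p = 0.0490) and -0.73 for Slc25a13 (adjusted p = 0.0245, edgeR).

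In the libraries labelled astrocytes, 4 of the 12 genes of glutamine, glutamate and GABA metabolism rose and 7 fell, against 85.1% called over all genes. Glutamine synthetase, Glul, had a mean of 5776 CPM against 58.4 CPM in BAL101553 libraries, and GABA transaminase, Abat, 353 against 0.361 CPM. Asparagine synthetase, Asns, was lower, at 3.15 against 190 CPM. Of the 15 synthesis genes, 9 rose and 5 fell, among them the creatine enzyme Gatm (839 against 9.96 CPM) and the glycine cleavage enzyme Gldc (150.1 against 1.18 CPM) on the higher side, and the proline enzymes Pycr1 and Aldh18a1 on the lower side. Of 7 other carriers, 4 rose and 3 fell. Of 7 vesicular neurotransmitter transporters, which load synaptic vesicles, 3 were tested and 2 rose, Slc17a6 and Slc17a7, and no group mean of the 7 was above 1.62 CPM.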

How the data were processed

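RNA of 9 libraries was read by stranded RNA sequencing and mapped with TopHat. The authors deposited whole-number read counts per gene, not normalized. The submitters' processing notes name HTSeq 0.6.1 and mm10, while the gene annotation and the strand setting of the counting are not given in the sources used here. All count columns belonged to these libraries, and 27 gene names had been turned into dates.

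The tests were run in R 4.3.3 on the counts with edgeR 4.0.16 (filterByExpr, TMM, quasi-likelihood test, two-sided). Only the 2 groups compared entered a fit. P-values were adjusted by Benjamini-Hochberg across every gene in the fit, and calls were made at 0.05. Standard errors were derived as |log2 fold change| over the root of F. GENCODE vM21 (GRCm38) gave exon lengths and positions, and RefSeq (GRCm38.p6) gave promoters. The labels do not say whether replicates were separate mice, so p-values measure only the spread between these libraries, each pair of which differed by more than counting noise. Alternatives were DESeq2 1.42.0, limma-trend (limma 3.58.1, prior count of 2), other scalings and filters, all 9 libraries in one model, libraries left out and the replicate block. Scripts were tested on simulated data.

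The members and the lists were chosen with earlier results of these data known. Values per library are given for members past the threshold after BAL101553, for the 8 largest rises and 8 largest falls in the libraries labelled astrocytes, and for the 8 members of highest level per kilobase in SB28. The other members given with values, and those singled out for BAL101553 library 2, were chosen after their values were seen. Some genes that these rules and the lists would name are not reported here.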

Additional observations from a re-analysis of the deposited data

How the results depend on the processing

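After BAL101553, 4 to 7 members passed under the other scalings, filters, tools and models, against 5 as reported. With 1 library left out the count was 1 to 5 (5 without BAL101553 1), and with 1 left out of each group, where calls over all genes fell to between 1 and 1757, it was 0 or 1. Total library sizes raised the share of higher calls over all genes from 58.7% to 77.4%. The replicate block gave 4 calls, of which Slc38a6 and Slc7a3 were shared and Slc6a9 and Slc6a17 were added, while Slc1a4, Slc36a1 and Slc6a2 were lost. The replicate numbers were not taken as pairs, which would need every same-numbered correlation above 0.1. The correlations were 0.15, -0.018 and 0.15 (BAL101553 and control) and -0.0018, 0.051 and 0.057 (astrocytes and BAL101553), although 2 of 3 libraries correlated best with their own number. In the libraries labelled astrocytes, 30 to 34 members passed, 31 as reported and with the block, except for 17 of 22 tested when every library needed 10 counts, a filter that leaves out members at or near 0 in one group. Across all of these settings 73.9% to 88.3% of all genes passed.

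The directions of few members turned. After BAL101553, with 1 or 2 libraries left out, Slc38a4 ranged from -0.38 to 5.06, Slc7a5 from -0.19 to 0.40 and Slc7a6 from -0.10 to 0.30 on the log2 scale, each below 0 only without BAL101553 2. Between the libraries labelled astrocytes and BAL101553, Slc38a4 ranged from -3.38 to 0.82 and Slc1a5 from -1.13 to 0.60 with 1 library left out. With control as the reference, they stood at 0.77 and 0.91, and Slc36a1 at 0.036. The cause was not tested. Genes with few counts, such as Slc6a2 and Slc1a7, are limited by depth.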

Other observations

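Genes that sense amino acids upstream of the kinase complex mTORC1 were read from a list of 15 genes present in the table. After BAL101553, 0 of them rose and 2 fell past the threshold (edgeR), against 14.7% of all genes called. These were Lamtor1, a lysosomal scaffold subunit, with means of 85.8 CPM in control and 60.1 CPM in BAL101553 libraries (log2 fold change -0.51, SE 0.090, adjusted p = 0.0156), and the GTPase Rraga, with 78.1 and 61.6 CPM (-0.33, SE 0.089, adjusted p = 0.0441). In the libraries labelled astrocytes, 5 rose and 5 fell, against 85.1% of all genes called. The leucine sensor Sesn2 was lower, at 7.05 against 35.3 CPM, its relative Sesn1 was higher, at 65.2 against 10.8 CPM, and the GTPase Rragb was at 30.7 against 0.484 CPM.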
